A study of Mus musculus with 12 samples.

Results

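The receptors that detect glutamate, GABA and glycine are built from subunits of a few gene families. They were taken as every gene whose symbol begins Gria, Grid, Grik, Grin, Grm, Gabr, Gabbr, Glra or Glrb and ends in the usual subunit number or letter, which gives 52 genes of 27179 in the deposited tables. They comprise 18 ionotropic glutamate receptor genes (AMPA, delta, kainate and NMDA types), 8 metabotropic glutamate receptor genes, 19 GABA-A, 2 GABA-B and 5 glycine receptor genes. The pattern uses names alone, so no measured value chose a gene.

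RNA was measured in 12 bulk libraries of dorsal cortex from C57BL/6 mouse embryos, 3 wild-type (WT) and 3 Ash2l conditional knockout (cKO) libraries at each of the embryonic days E14.5 and E16.5. The cKO embryos carry D6-Cre, a recombinase driven from a Dach1 enhancer that is active in dorsal telencephalic progenitors, so cells that enter the cortex from elsewhere keep the gene. Ash2l encodes a shared subunit of the complexes that methylate histone H3 at lysine 4, and the series asks what it does while the cortex forms. Each title holds a number that 1 WT and 1 cKO library of the same age share. Libraries are called A, B and C within each age and genotype by the size of that number, and values for a group are listed in that order. What the number stands for, and whether a library is 1 embryo, is not in the labels. The p-values therefore set each difference against the spread of these libraries, and part of that spread may be technical.

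Ionotropic glutamate receptors are cation channels of 4 subunits, and NMDA receptors need the obligatory subunit Grin1. GABA-A receptors are chloride channels of 5 subunits, usually of the alpha, beta and gamma kinds, and glycine receptors are related chloride channels. Metabotropic glutamate receptors and GABA-B receptors act through G proteins. In the embryonic cortex these receptors appear before most synapses do, and GABA and glycine can depolarise immature cortical neurons.

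Ash2l lay between 118 and 143 CPM in the E14.5 WT libraries and between 47.0 and 60.0 CPM in the E14.5 cKO libraries. At E16.5 the ranges were 129 to 135 and 54.4 to 60.7 CPM. CPM is a gene's count scaled to a common library total. The log2 fold change of Ash2l, cKO over WT, was -1.28 at E14.5 and -1.20 at E16.5 (edgeR adjusted p = 0.0124 and 8.19e-04). The counts cover all exons, and the labels do not name the exons that are deleted. Library totals ran from 14318147 to 24719047 counts, of which the 52 receptor genes took between 0.127% and 0.357%. Markers of dorsal cortex were present in every library. Their summed level over 9 genes was 2931 to 3158 CPM in WT and 2279 to 3049 CPM in cKO at E14.5. At E16.5 it was 2960 to 3154 against 2391 to 2661 CPM, without overlap of the genotypes. Of the 9 genes, 1 was called lower at E16.5 by edgeR, where 9.88% of all genes tested were, so this count is near that share. At E14.5 the 3 WT libraries are of male and the 3 cKO libraries of female embryos, read from sex-linked genes, so sex and genotype cannot be told apart at that age. At E16.5 each genotype holds both sexes. Of the E14.5 libraries, E14.5 WT B had the highest summed level of 16 GABAergic and ventral forebrain markers, 505 CPM against 131 to 278 CPM in the other 5, and E14.5 cKO A had 346 CPM of 8 meningeal markers against 12.6 to 46.9 CPM.

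At E16.5 the receptor genes were mostly lower in cKO. Of 41 that passed a filter on low counts, 12 were called at an adjusted p of 0.05 (edgeR's quasi-likelihood test, adjusted over all genes), and all 12 fell. They include Gabrb2, Gabra3, Grin2b, Gabra5, Gabbr2, Grik5, Grid1, Gria4 and Gria3, and the log2 fold changes of the 12 ran from -1.45 to -0.45. The 12 are 29.3% of the members tested, where 9.88% of all 14865 genes tested were called lower and 15.9% were called in either direction. The log2 fold change was below 0 for 34 of the 41, with a median of -0.52, beside 0.0181 over all genes. In 18 members (43.9%) every cKO library lay below every WT library, and in 0 above, where 18.3% of all genes did the former and 19.3% the latter. An unadjusted p under 0.05 was reached by 23 members (56.1%) and by 31.6% of all genes. In bulk tissue, fewer cells of a type and less RNA per cell cannot be told apart.

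**Figure D1:**
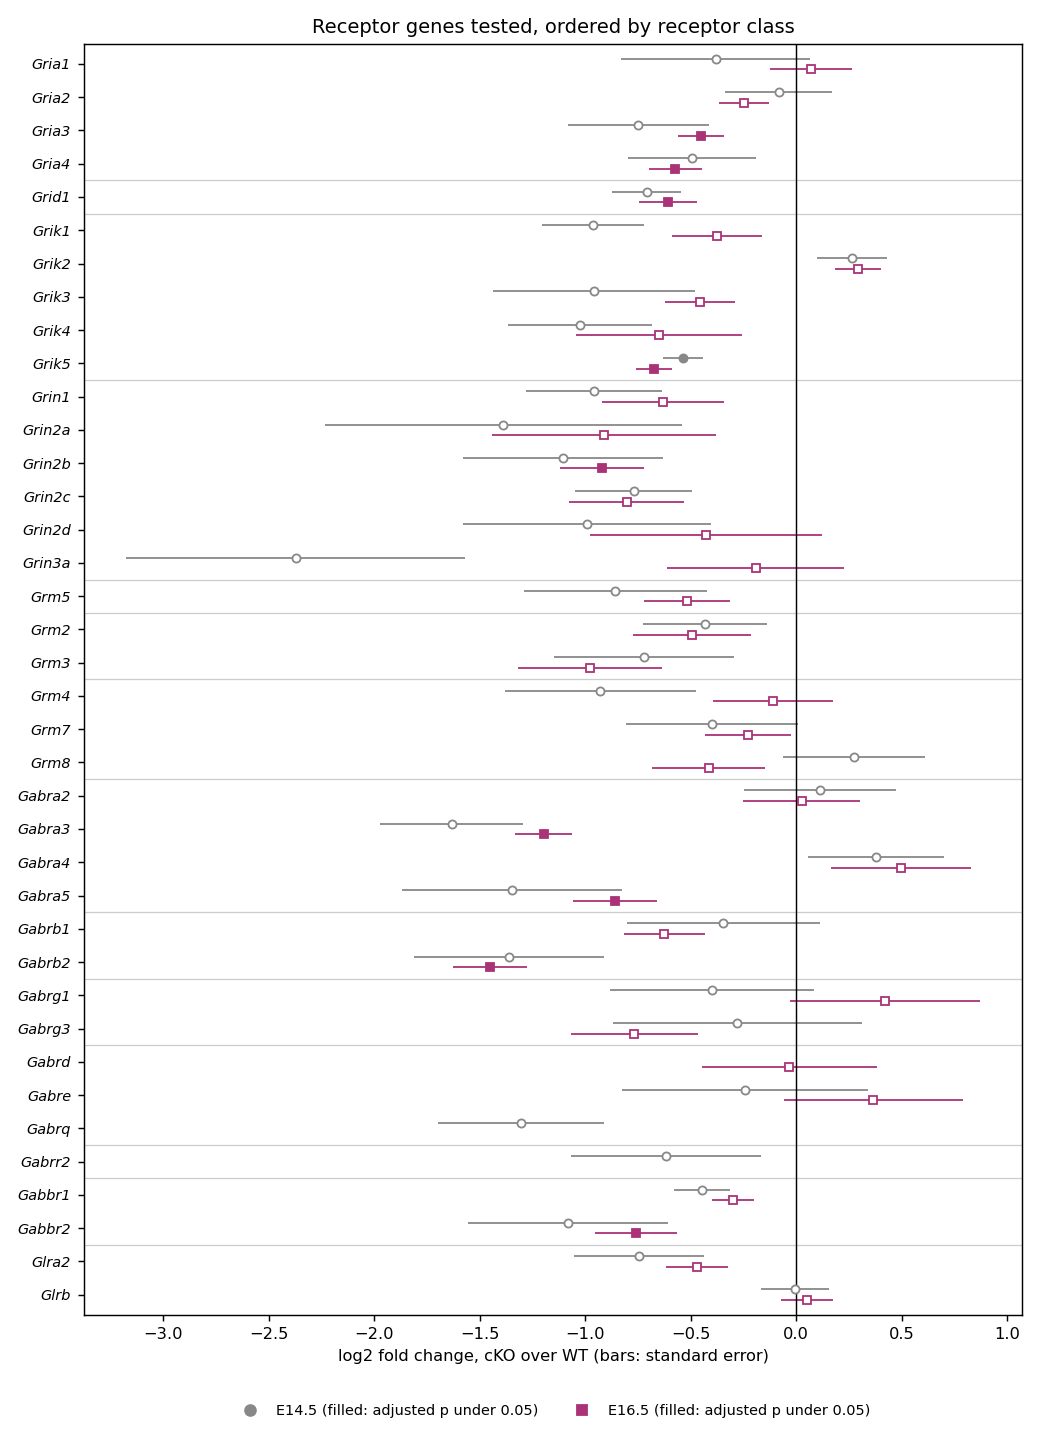
Log2 fold change of cKO over WT with its standard error for 38 receptor genes tested at E14.5 (circles) or E16.5 (squares), with grey lines between receptor classes and filled symbols for an adjusted p under 0.05. The 9 filled squares at E16.5 all lie left of 0, and Grik2, Gabra2, Gabra4, Gabrg1, Gabre, Gria1 and Glrb lie right of it unfilled.

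The titles' numbers were taken to pair WT with cKO libraries at E16.5, where libraries of the same number deviated together from their group means (correlations over genes of 0.281, 0.210 and 0.112). The third value is close to the 0.107 of a pair with different numbers, E16.5 WT C and E16.5 cKO B, and just over the limit of 0.1 for such a pairing, which the block values rest on. With that number as a block, 24 members were called lower and 1 higher at E16.5, where 17.9% of all genes were called lower, 14.3% higher and 32.2% in either direction. Adjusted p with the block is given for single genes below only where it passed. Members that did not pass include Grik1 (edgeR adjusted p = 0.0503 with the block), Gabra4 (0.0506), Grin2c (0.0535), Grm2 (0.0882), Gabrg3 (0.114) and Grin2d (0.170). Without the block, the count of 12 fell to 5 when E16.5 WT A or E16.5 WT B was left out. It fell to 6 when E16.5 cKO B or E16.5 cKO C was left out, and rose to 19 without E16.5 cKO A. The 19 include Grik2 and Gabra4, which were higher in cKO. Gabra3, Gabrb2 and Grik5 were called in each of these fits. Grid1 was called without E16.5 cKO C as well, Gabrb1 without E16.5 cKO B, and Grin2b, Gabra5, Gabbr2, Gria4 and Gria3 were lost in all 4 of the fits with the lower counts. Gabbr2 and Gria3 were also lost without E16.5 WT C. Shares of all genes called in the fits without 1 library are not given. The counts alone therefore do not show a change particular to receptor genes.

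Among the AMPA receptor genes, the fast glutamate-gated channels, Gria3 and Gria4 fell at E16.5 and Gria1 and Gria2 were not called. Gria3 was 90.6, 89.4 and 83.8 CPM in WT and 73.5, 54.7 and 65.5 CPM in cKO, which differ (log2 fold change of -0.45 with SE 0.108, edgeR adjusted p = 0.0278). Gria4 was 94.6, 86.0 and 68.3 CPM in WT and 61.6, 52.7 and 53.6 CPM in cKO, which differ too (log2 fold change of -0.57 with SE 0.125, edgeR adjusted p = 0.0206). For both genes the cKO range lay wholly below the WT range. Gria2, whose edited subunit keeps calcium out of the channel, had the highest level per exon length of the 52 genes, with an RPKM (CPM per kilobase of exon) of 127 ± 17.4 in WT and 108 ± 12.6 in cKO at E16.5 (SD, n = 3 each). Its libraries held 1105, 1017 and 839.7 CPM in WT and 947, 773 and 785 CPM in cKO (log2 fold change of -0.25 with SE 0.120, edgeR adjusted p = 0.201), and with the replicate block its change of -0.24 (adjusted p = 0.0124) was called. Gria1 gave 249, 234 and 194 CPM in WT and 311, 227 and 174 CPM in cKO (log2 fold change of 0.0694 with SE 0.194, edgeR adjusted p = 0.844). The 2 genotypes overlapped for Gria1 and Gria2.

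At E14.5 none of the 4 AMPA genes was called by edgeR, and their log2 fold changes ran from -0.75 for Gria3 to -0.0839 for Gria2. Gria3 was 54.2, 75.8 and 62.0 CPM in WT and 19.0, 54.6 and 40.5 CPM in cKO, and Gria4 38.8, 54.5 and 52.2 against 20.2, 50.6 and 32.2 CPM. Gria2 was 629.8, 606 and 741 CPM in WT and 385, 850.5 and 622 CPM in cKO, and Gria1 88.9, 166 and 110.0 against 37.0, 145 and 96.9 CPM. In all 4 genes E14.5 cKO A was the lowest library of the 6.

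The delta receptor gene Grid1, whose product binds extracellular synaptic organisers, fell at E16.5. It stood at 19.7, 16.9 and 14.53 CPM in WT and 10.5, 11.6 and 11.6 CPM in cKO (log2 fold change of -0.61 with SE 0.136, edgeR adjusted p = 0.0223). E14.5 values were 12.2, 17.3 and 14.9 CPM in WT and 8.35, 8.86 and 9.69 CPM in cKO (log2 fold change of -0.71 with SE 0.162, edgeR adjusted p = 0.0743). The genotypes did not overlap at either age.

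The kainate receptor genes divided. Grik5, an auxiliary high-affinity subunit that must combine with Grik1, Grik2 or Grik3, fell at both ages and was the 1 member called at E14.5. It was 153, 159 and 145 CPM in WT and 99.3, 99.0 and 115 CPM in cKO at E14.5 (log2 fold change of -0.54 with SE 0.0952, edgeR adjusted p = 0.0402). The E16.5 values were 151, 145 and 124 CPM in WT and 85.6, 89.0 and 90.1 CPM in cKO (log2 fold change of -0.67 with SE 0.0839, edgeR adjusted p = 0.00295). No cKO library of either age reached the lowest WT library. The E14.5 call was lost when any 1 library was left out, with adjusted p up to 0.164 over the alternatives, while the log2 fold change stayed between -0.65 and -0.48.

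Grik2, the most abundant kainate gene by RPKM, encodes a subunit that forms channels by itself. Grik2 was not called at either age with all libraries of that age and no block. Without E16.5 cKO A it was called at E16.5. Its E14.5 libraries held 298, 212 and 317 CPM in WT and 292, 377 and 319.7 CPM in cKO (log2 fold change of 0.27 with SE 0.167, edgeR adjusted p = 0.420). Its E16.5 libraries held 213, 242 and 213 CPM in WT and 231, 288 and 303 CPM in cKO (log2 fold change of 0.29 with SE 0.107, edgeR adjusted p = 0.105), and the replicate block called it higher (adjusted p = 0.0142 with the block). Grik3 was below 0 at both ages (-0.96 and -0.46) and passed at E16.5 with the block (adjusted p = 7.00e-04 with the block). The low-level genes Grik1 and Grik4 changed by -0.96 and -1.02 at E14.5 and by -0.37 and -0.65 at E16.5, and Grik4 passed with the block at E16.5 (adjusted p = 0.0264 with the block).

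As a share of the summed RPKM of the 5 kainate genes, Grik2 was 47.2% ± 9.30 in WT and 63.3% ± 2.74 in cKO at E14.5 (SD, n = 3 each, exact permutation p = 0.1). At E16.5 it was 40.1% ± 3.15 in WT and 54.7% ± 6.21 in cKO (SD, n = 3 each, exact permutation p = 0.1), and the genotypes did not overlap at either age. The Grik5 share of the 3 cKO libraries lay below that of WT at E16.5, with 31.8% ± 0.924 in WT and 22.4% ± 0.276 in cKO (SD, n = 3 each, exact permutation p = 0.1). With 3 libraries against 3, 0.1 is the smallest p that this two-sided test can give, so no share can pass 0.05. Shares of 1 class sum to a fixed total, so a higher share of 1 gene lowers the others. The summed kainate RPKM was 114 ± 9.08 in WT and 103 ± 3.13 in cKO at E16.5 (SD, n = 3 each).

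Every tested NMDA receptor gene had a log2 fold change below 0 at both ages, and 1 was called. Grin2b, the glutamate-binding subunit that prevails before birth, held 79.8% ± 1.23 of the summed NMDA RPKM in E16.5 WT (SD, n = 3). It was 365, 284 and 234 CPM in WT and 199.7, 140.2 and 128 CPM in cKO at E16.5 (log2 fold change of -0.92 with SE 0.200, edgeR adjusted p = 0.0206), without overlap. The E14.5 libraries gave 90.9, 199.8 and 119 CPM in WT and 25.4, 98.7 and 65.9 CPM in cKO (log2 fold change of -1.11 with SE 0.476, edgeR adjusted p = 0.250), and the ranges overlapped through E14.5 WT A and E14.5 cKO B. Grin1, the obligatory subunit, was 35.7, 30.3 and 22.6 CPM in WT and 27.7, 17.5 and 11.96 CPM in cKO at E16.5 (log2 fold change of -0.63 with SE 0.290, edgeR adjusted p = 0.180), and passed with the block (adjusted p = 0.00182 with the block). At E14.5 Grin1 was 11.9, 21.3 and 14.7 CPM in WT and 4.95, 11.3 and 8.34 CPM in cKO, where the groups did not overlap (log2 fold change of -0.96 with SE 0.323, edgeR adjusted p = 0.163). The share of Grin2b in the class did not separate the genotypes, at 76.5% ± 4.04 in E16.5 cKO (SD, n = 3).

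The other NMDA genes were low. Grin2a, which replaces Grin2b after birth, reached 3.19 CPM at most and changed by -1.39 and -0.91 at E14.5 and E16.5, with a block value at E16.5 of adjusted p = 0.0469 with the block. Grin2c and Grin2d changed by -0.80 and -0.43 at E16.5. Grin3a, a glycine-binding subunit, spread widely at E14.5, with 1.15, 7.02 and 2.91 CPM in WT and 0.162, 1.26 and 0.739 CPM in cKO (log2 fold change of -2.37 with SE 0.803, edgeR adjusted p = 0.164). Its highest library, E14.5 WT B, was also the library with the most GABAergic and ventral marker RNA, and the part of those cells in the value was not tested.

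The metabotropic glutamate receptor genes described here were not called in cKO by edgeR without the block. Grm5, a group I receptor that raises intracellular calcium, was 74.0, 68.2 and 46.9 CPM in WT and 53.7, 44.7 and 34.0 CPM in cKO at E16.5 (log2 fold change of -0.52 with SE 0.205, edgeR adjusted p = 0.127; adjusted p = 3.16e-04 with the block). At E14.5 it was 20.4, 47.0 and 36.6 against 8.67, 27.9 and 20.7 CPM.

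The group II and III receptors lower cyclic AMP. Grm3 was 43.3, 29.7 and 22.1 CPM in WT and 23.0, 15.9 and 9.12 CPM in cKO at E16.5 (log2 fold change of -0.98 with SE 0.341, edgeR adjusted p = 0.0907; adjusted p = 7.70e-05 with the block), and E16.5 cKO A overlapped E16.5 WT C. At E14.5 Grm3 was 3.50, 11.3 and 8.36 CPM in WT and 3.66, 6.35 and 4.02 CPM in cKO. The genotypes thus overlapped for Grm3 at both ages. Grm2 gave 3.70, 7.40 and 5.45 against 4.74, 3.42 and 3.94 CPM at E14.5 and 7.49, 4.47 and 4.16 against 4.42, 4.10 and 2.91 CPM at E16.5, with overlap at both ages. Grm7 was 2.55, 7.21 and 5.68 against 2.58, 4.46 and 4.56 CPM at E14.5 and 8.60, 8.54 and 5.34 against 6.23, 6.23 and 6.80 CPM at E16.5. Grm4 and Grm8 stayed under 3 CPM in every library, and of the 3 group III genes tested none was called at either age.

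Among the GABA-A genes, Gabrb2, Gabra3 and Gabra5 fell at E16.5. Gabrb2, a beta subunit of the main adult receptor, had the lowest log2 fold change of the 41 members. It was 81.0, 62.8 and 52.8 CPM in WT and 25.6, 19.8 and 26.8 CPM in cKO (log2 fold change of -1.45 with SE 0.175, edgeR adjusted p = 0.00275), a 2.74-fold lower level. E14.5 values were 21.0, 56.9 and 34.4 CPM in WT and 7.70, 22.6 and 13.4 CPM in cKO (log2 fold change of -1.36 with SE 0.452, edgeR adjusted p = 0.159). The E14.5 ranges overlapped through E14.5 WT A and E14.5 cKO B. Gabrb1 was 15.5, 15.5 and 12.4 CPM in WT and 8.35, 12.1 and 7.66 CPM in cKO at E16.5 (log2 fold change of -0.62 with SE 0.193, edgeR adjusted p = 0.0650; adjusted p = 0.00470 with the block), and 4.70, 6.89 and 7.25 against 2.10, 8.51 and 4.31 CPM at E14.5.

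Gabra3, an alpha subunit known from the embryonic and newborn brain, was 24.5, 22.3 and 20.4 CPM in WT and 11.3, 9.44 and 8.65 CPM in cKO at E16.5 (log2 fold change of -1.20 with SE 0.134, edgeR adjusted p = 0.00219). For E14.5 the values were 10.8, 20.2 and 16.53 CPM in WT and 3.18, 7.39 and 4.76 CPM in cKO (log2 fold change of -1.63 with SE 0.340, edgeR adjusted p = 0.0599). No library of one genotype reached the other at either age. Gabra5, a subunit of extrasynaptic receptors, was 10.1, 8.37 and 7.85 CPM in WT and 6.01, 3.89 and 4.62 CPM in cKO at E16.5 (log2 fold change of -0.86 with SE 0.199, edgeR adjusted p = 0.0247). Its genotypes were separate at E16.5 and overlapped at E14.5, where it was 3.45, 9.74 and 5.36 against 1.18, 4.04 and 2.09 CPM.

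Gabra2, the main alpha gene of this tissue by RPKM, and Gabra4 were not called at either age with all libraries of that age. Without E16.5 cKO A, Gabra4 was called at E16.5. Gabra2 was 42.2, 72.5 and 55.1 CPM in WT and 35.8, 73.8 and 64.0 CPM in cKO at E16.5 (log2 fold change of 0.0253 with SE 0.278, edgeR adjusted p = 0.965). At E14.5 it was 28.0, 40.3 and 44.4 against 23.4, 65.4 and 33.0 CPM. Gabra4 was 10.7, 17.0 and 13.5 CPM in WT and 10.1, 26.5 and 21.8 CPM in cKO at E16.5 (log2 fold change of 0.50 with SE 0.332, edgeR adjusted p = 0.347) and 13.5, 10.1 and 16.3 against 10.6, 25.9 and 15.4 CPM at E14.5. For both genes the libraries of one genotype spread more widely than the means differed. As shares of the summed alpha RPKM, Gabra3 was 16.2% ± 2.04 in WT and 6.01% ± 0.624 in cKO at E14.5 and 16.47% ± 3.66 and 8.49% ± 3.96 at E16.5 (SD, n = 3 each, exact permutation p = 0.1 at each age). The Gabra2 share was 60.5% ± 2.68 in WT and 71.6% ± 1.54 in cKO at E14.5, without overlap, and 62.7% ± 6.78 and 70.6% ± 5.17 at E16.5, with overlap (SD, n = 3 each). Gabrb2 held 19.6% ± 1.52 in WT and 11.8% ± 2.73 in cKO of the summed beta RPKM at E16.5 (SD, n = 3 each, exact permutation p = 0.1).

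**Figure D2:**
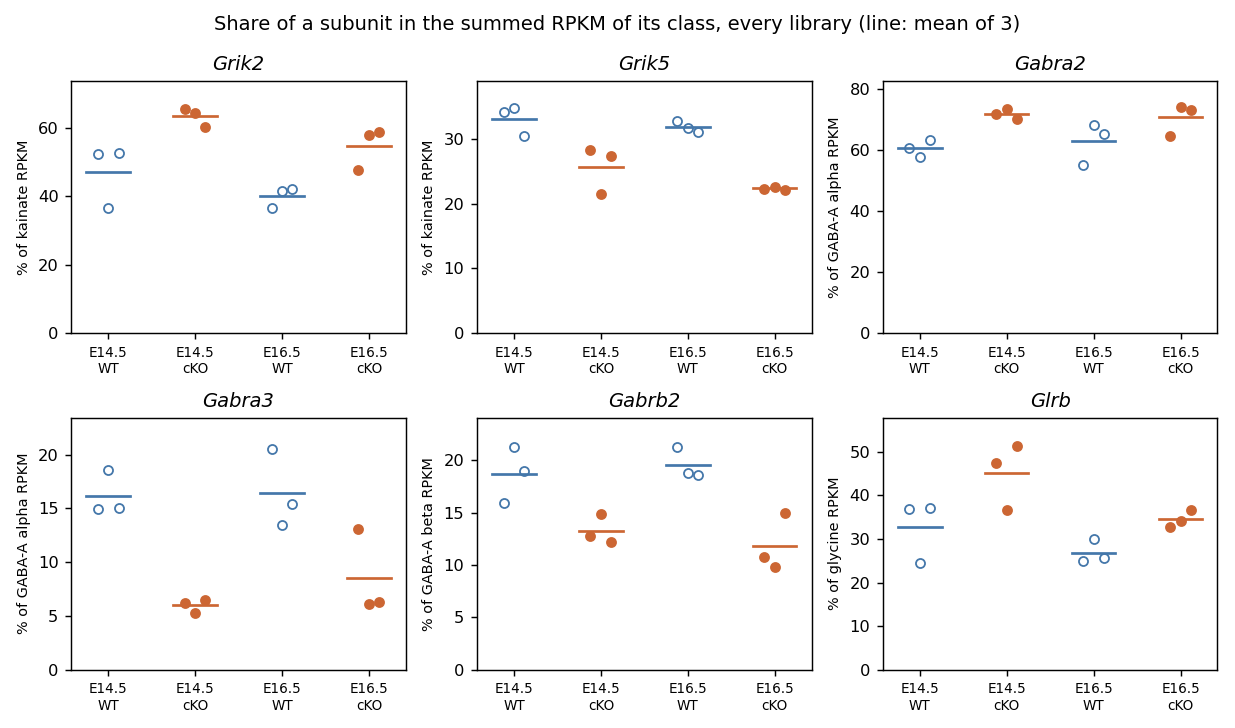
Share in percent of the summed RPKM of its receptor class for 6 subunit genes, with 1 point a library, open for WT and filled for cKO, and a line at the mean of 3. At E16.5 the Grik2 and Glrb shares of all 3 cKO libraries lie above those of WT and the Grik5, Gabra3 and Gabrb2 shares lie below, while the Gabra2 shares overlap.

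Gamma subunits help to place the receptor at synapses. Gabrg3 was 2.87, 1.92 and 1.75 CPM in WT and 1.01, 1.45 and 1.39 CPM in cKO at E16.5, separate but not called (log2 fold change of -0.77 with SE 0.302, edgeR adjusted p = 0.125), and 0.500, 0.633 and 1.15 against 0.215, 1.12 and 0.616 CPM at E14.5. Gabrg1 was under 4 CPM in every library (log2 fold change of 0.42 with SE 0.449, edgeR adjusted p = 0.567 at E16.5).

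The remaining GABA-A genes were low. Gabre was 4.10, 0.949 and 4.20 against 4.09, 1.53 and 2.14 CPM at E14.5 and 0.531, 1.05 and 1.49 against 0.905, 1.45 and 1.65 CPM at E16.5, with overlap at both ages. Gabrd, the subunit of many extrasynaptic receptors, was 0.350, 0.696 and 0.416 against 0.269, 0.418 and 0.370 CPM at E14.5 and 0.584, 0.407 and 0.667 against 0.745, 0.363 and 0.528 CPM at E16.5. Gabrr2, a rho subunit, was 0.450, 1.01 and 0.554 against 0.538, 0.418 and 0.328 CPM at E14.5 and 0.478, 0.291 and 0.359 against 0.692, 0.156 and 0.264 CPM at E16.5. Gabrq gave -1.30 at E14.5 from 16 counts or fewer in each library (edgeR adjusted p = 0.133) and was below the filter at E16.5.

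**Figure D3:**
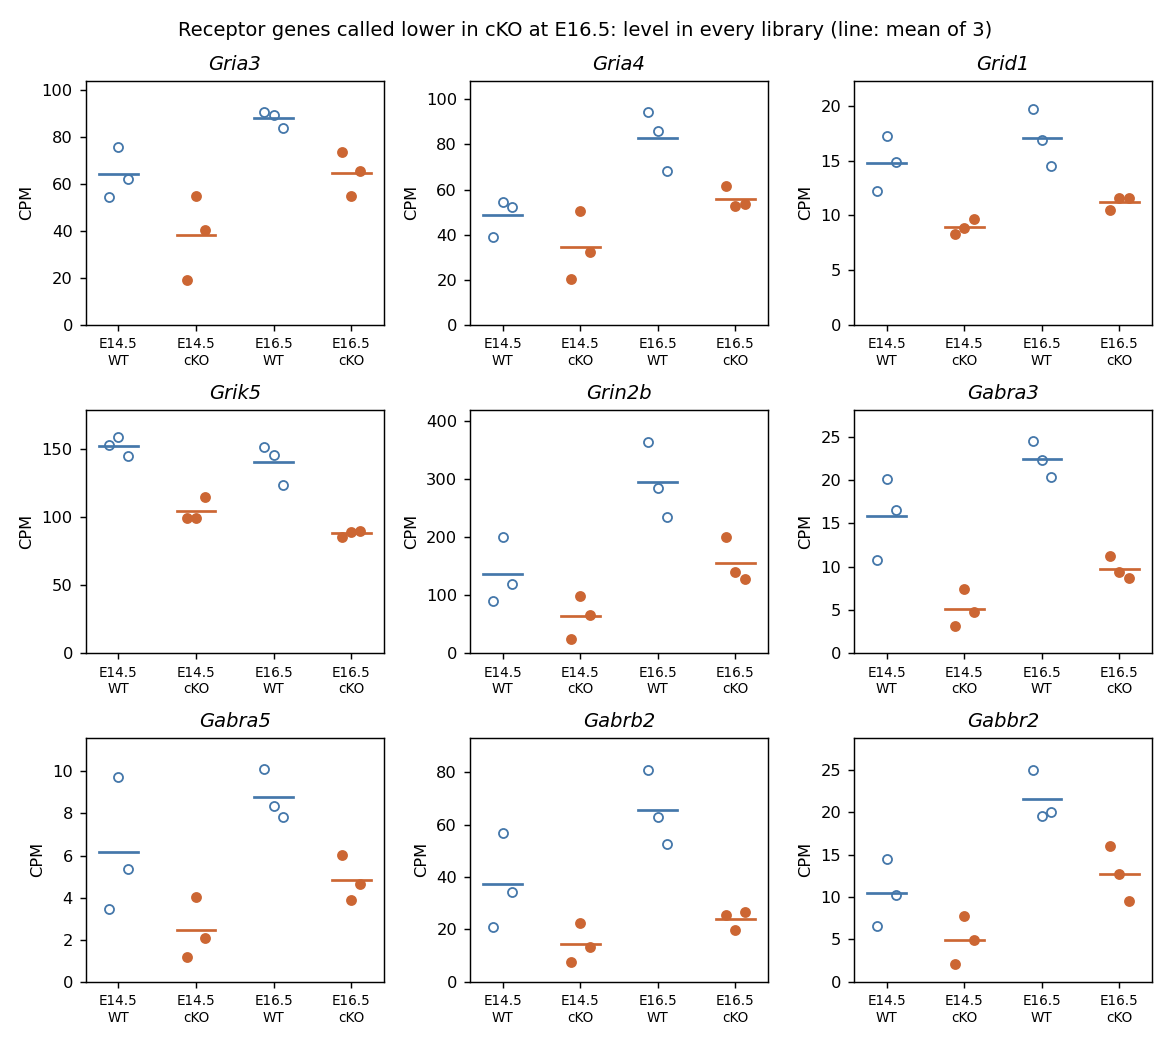
CPM in every library (1 point each, open for WT and filled for cKO, with a line at the mean of 3) of 9 receptor genes called lower in cKO at E16.5, on linear axes from 0. In each panel the 3 cKO points at E16.5 lie below the 3 WT points. At E14.5 this holds for Grid1, Grik5 and Gabra3.

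Trimethylated lysine 4 of histone H3, the mark laid by the complexes that hold Ash2l, is found mainly at promoters rich in CpG dinucleotides, so promoters are shown for 4 genes that fell and for Gabra2, which was not called. Each sequence runs 5′ to 3′ from 250 bases before to 50 bases after the gene's start in RefSeq's GRCm38.p6 table, with each CpG in capitals. Grik5 fell at both ages. Gabrb2 had the lowest log2 fold change at E16.5. Gabra3 and Gabbr2 have the fewest and the most CpG of the called genes in the table. Their windows are chr7:25072320-25072619 (minus strand, Grik5), chr11:42420190-42420489 (plus strand, Gabrb2), chrX:72656758-72657057 (minus strand, Gabra3), chr4:46991665-46991964 (minus strand, Gabbr2) and chr5:71095800-71096099 (minus strand, Gabra2). The Gabra3 start in that table lies 561 bases from the start of the gene as the authors counted it, upstream of it, and the Gabrb2 start lies 683 bases from it, inside the gene.
Grik5: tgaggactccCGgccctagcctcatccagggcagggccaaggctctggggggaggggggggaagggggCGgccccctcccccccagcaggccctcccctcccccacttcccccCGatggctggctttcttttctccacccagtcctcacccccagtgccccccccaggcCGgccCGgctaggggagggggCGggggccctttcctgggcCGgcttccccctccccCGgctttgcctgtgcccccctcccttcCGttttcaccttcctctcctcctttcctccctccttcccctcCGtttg
Gabrb2: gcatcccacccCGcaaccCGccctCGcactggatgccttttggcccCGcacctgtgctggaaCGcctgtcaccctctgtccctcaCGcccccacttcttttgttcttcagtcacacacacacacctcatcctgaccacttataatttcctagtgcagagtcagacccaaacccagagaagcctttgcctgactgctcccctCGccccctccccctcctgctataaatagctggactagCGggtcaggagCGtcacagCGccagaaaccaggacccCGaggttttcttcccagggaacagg
Gabra3: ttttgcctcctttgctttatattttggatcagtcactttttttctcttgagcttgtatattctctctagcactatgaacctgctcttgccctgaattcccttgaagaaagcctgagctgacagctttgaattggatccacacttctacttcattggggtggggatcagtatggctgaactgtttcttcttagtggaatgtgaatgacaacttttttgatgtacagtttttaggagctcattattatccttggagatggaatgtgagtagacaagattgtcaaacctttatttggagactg
Gabbr2: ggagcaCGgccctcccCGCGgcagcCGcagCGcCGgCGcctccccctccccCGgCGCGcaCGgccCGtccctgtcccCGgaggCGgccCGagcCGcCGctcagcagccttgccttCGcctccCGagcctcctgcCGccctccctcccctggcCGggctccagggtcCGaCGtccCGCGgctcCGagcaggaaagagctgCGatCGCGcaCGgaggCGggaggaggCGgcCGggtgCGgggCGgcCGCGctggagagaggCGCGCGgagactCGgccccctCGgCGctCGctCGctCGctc
Gabra2: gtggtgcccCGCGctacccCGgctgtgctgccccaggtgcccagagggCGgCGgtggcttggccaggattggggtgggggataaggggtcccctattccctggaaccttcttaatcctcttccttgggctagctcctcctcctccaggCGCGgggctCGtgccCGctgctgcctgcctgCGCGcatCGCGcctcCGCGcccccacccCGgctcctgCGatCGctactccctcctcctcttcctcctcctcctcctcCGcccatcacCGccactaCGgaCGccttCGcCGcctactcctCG

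The Gabra3 window held 0 CpG, Grik5 10, Gabrb2 11, Gabra2 25 and Gabbr2 46. Of the 52 genes, 36 have an entry, with a median of 12 CpG, where the median over all 32851 windows was 7. The 6 called lower with an entry had a median of 12, and the 20 tested and not called had 20. A GC box, searched as GGGCGG on both strands (it contains a CpG itself), was in 3 of the 6 (50%), in 14 of the 20 (70%) and in 35.7% of all windows. With 6 genes these are descriptions, and a missing match says only that the letters are not in the window.

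The GABA-B receptor is a pair of Gabbr1, which binds GABA, and Gabbr2, which couples to the G protein. Gabbr2 fell at E16.5, from 25.02, 19.6 and 20.1 CPM in WT to 16.1, 12.7 and 9.51 CPM in cKO (log2 fold change of -0.76 with SE 0.193, edgeR adjusted p = 0.0354). Gabbr1, far more abundant, was 308, 292 and 247.8 CPM in WT and 243, 242 and 207 CPM in cKO, also without overlap (log2 fold change of -0.30 with SE 0.0996, edgeR adjusted p = 0.0801; adjusted p = 3.82e-04 with the block). At E14.5 Gabbr2 was 6.55, 14.55 and 10.2 against 2.05, 7.81 and 4.97 CPM with overlap, and Gabbr1 212, 255 and 218 against 136, 182 and 181 CPM without (log2 fold change of -0.45 with SE 0.134, edgeR adjusted p = 0.128). Gabbr2 took 7.89% ± 0.776 of the summed GABA-B RPKM in E16.5 WT and 5.79% ± 1.03 in cKO (SD, n = 3 each, exact permutation p = 0.1).

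Of the glycine receptor genes, Glra2, the embryonic alpha subunit, and Glrb, which binds gephyrin, passed the filter. Glra2 was 68.1, 52.2 and 58.1 CPM in WT and 52.3, 36.9 and 40.03 CPM in cKO at E16.5, touching at one pair of libraries (log2 fold change of -0.47 with SE 0.149, edgeR adjusted p = 0.0697; adjusted p = 5.76e-04 with the block). The E14.5 libraries gave 27.6, 50.8 and 37.6 against 17.2, 33.7 and 18.2 CPM. Glrb was 24.9, 24.3 and 21.8 CPM in WT and 27.8, 20.9 and 25.2 CPM in cKO at E16.5 (log2 fold change of 0.0513 with SE 0.123, edgeR adjusted p = 0.815) and 17.6, 17.9 and 24.5 against 17.0, 21.4 and 20.9 CPM at E14.5, with overlap at both. Its share of the summed glycine receptor RPKM was 26.9% ± 2.66 in WT and 34.5% ± 1.94 in cKO at E16.5, without overlap (SD, n = 3 each, exact permutation p = 0.1).

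The filter on low counts removed 9 members at both ages: Gabra6, Gabrp, Gabrr1, Gabrr3, Glra1, Glra3, Glra4, Grin3b and Grm6. Grin3b had 1 to 7 counts in each library and the other 8 had 0 to 4. A count of 0 allows up to 3 counts, which is 0.123 to 0.209 CPM over these libraries and covers counting error only. Gabrd was removed at E14.5 alone, and Gabrq and Gabrr2 at E16.5 alone.

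At E14.5 most receptor genes again had values below 0, and few passed the test. Of 42 members tested, Grik5 alone was called, or 2.38%, where 1.66% of 14788 genes were called lower and 2.01% in either direction. Of the 42, 38 had a log2 fold change below 0, with a median of -0.73 beside 0.0254 over all genes, and 16 (38.1%) had an unadjusted p under 0.05, where 20.2% of all genes did. In 10 members (23.8%) the cKO libraries lay wholly below the WT libraries, where 14.8% of all genes did so, and in 0 wholly above, where 11.9% did. DESeq2 called 8 lower and 0 higher, where it called 6.28% of all genes lower. Without the pair E14.5 WT B and E14.5 cKO A, whose markers of other tissue stood apart, 0 members were called and the median was -0.35. E14.5 WT B also had the highest summed level of neuronal markers at E14.5 (7482 CPM), and E14.5 cKO A the lowest (3057 CPM). What the smaller median owes to either kind of marker was not tested. Gabra3, Gabre, Gabrq, Gria3, Glra2 and Glra4 lie on the X chromosome, and sex cannot be told apart from genotype at E14.5.

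The cKO effect was tested for a difference between the ages in 1 fit of the 12 libraries. By edgeR and by DESeq2, 0 of 43 members and 0 of all genes were called. In simulated counts with known changes, the edgeR test recovered 3.77% of 1.5-fold and 25.5% of 2-fold differences. Most differences of that size would thus be missed. At an unadjusted p under 0.05, 2 members differed, Grin3a (2.19) and Gabrq (1.36), where 2.07% of 15338 genes did. The 12 members called at E16.5 are therefore not shown to differ from their E14.5 values.

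In WT alone, 35 of 43 members had a log2 fold change of E16.5 over E14.5 above 0, with a median of 0.51 beside -0.0108 over all genes. Of these Grm3 was called, rising by 2.05 (SE 0.423, edgeR adjusted p = 0.0399) with no overlap, where 0.763% of 15338 genes were called higher and 2.15% in either direction. In 15 members (34.9%) every E16.5 library lay above every E14.5 library, where 17.0% of all genes did, and in 1 below, where 18.3% did. Grin2b changed by 1.11 (adjusted p = 0.114) and Gabbr2 by 1.05 (adjusted p = 0.106). Gabre (-1.60) and Gabrq (-1.31) had the lowest values, with adjusted p of 0.103 and 0.0735. DESeq2 called 5 higher and 1 lower, where it called 6.48% of all genes higher and 6.86% lower. An unadjusted p under 0.05 was reached by 19 members and by 27.7% of all genes. The count was 8 without E14.5 WT B, 9 without E14.5 cKO A, 5 without E14.5 cKO B and 23, of which 21 higher, without E14.5 WT B and E14.5 cKO A together. The 8 include Gabre and Grik2, whose log2 fold changes with all libraries were below 0 (-1.60 and -0.31). Leaving out 1 library gave counts from 0 to 9. Shares of all genes called in these fits are not given, so the counts alone do not show a change particular to receptor genes. The call for Grm3 was lost without E14.5 WT A (adjusted p = 0.136), E14.5 WT C (0.167), E16.5 WT A (0.172), E16.5 WT B (0.139), E16.5 WT C (0.0595), E14.5 cKO C (0.0629) or E16.5 cKO B (0.0657), and its log2 fold change lay between 1.69 and 2.42 over all alternatives. The ages come from different embryos and different deposited tables. This comparison shares its libraries with the comparisons of cKO with WT.

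Markers of neurons were lower in cKO too, as most receptor genes were. Of 15 pan-neuronal markers, 9 were called lower and 0 higher in cKO at E16.5, where 9.88% of all genes were called lower. The median log2 fold change of these markers was -0.50, close to the receptor median of -0.52. Their summed level was 7675 to 8526 CPM in WT and 5789 to 6102 CPM in cKO, which puts the cKO mean at 73.6% of WT. For E14.5 the values were 5147 to 7482 CPM in WT and 3057 to 5218 CPM in cKO, with 1 of 15 called lower, where 1.66% of all genes were. The median of the 15 at E14.5 was -0.49, nearer to 0 than the receptor median of -0.73. GABAergic and ventral markers summed to 263 to 348 CPM in WT and 242 to 348 CPM in cKO at E16.5, with 0 of 14 called. At E14.5 they summed to 196 to 505 CPM in WT and 131 to 219 CPM in cKO. All 14 tested at E14.5 had a log2 fold change below 0, with a median of -1.20, and 0 were called. The part of these cells in the receptor values was not tested. Markers of the astrocyte and oligodendrocyte lineages summed to 213 to 234 CPM in WT and 150 to 212 CPM in cKO at E16.5, with 0 of 8 called, and to 108 to 189 against 81.3 to 111 CPM at E14.5. Choroid plexus markers reached 618 CPM in E16.5 WT C and 476 CPM in E14.5 WT A, against 8.82 to 60.2 CPM in the other 10 libraries. Without E16.5 WT C, 12 receptor genes were called lower at E16.5, of which 10 are among the 12 called with it, and without E14.5 WT A 0 were called at E14.5. The part of the astrocyte and oligodendrocyte lineages in the receptor values was not tested. Apical progenitor markers had 3 of 12 called higher at E16.5, where 5.98% of all genes were. None of the pan-neuronal markers was at 0 in any library.

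Relative to the summed pan-neuronal level of the same library, a measure chosen after seeing the data, the receptor genes split. Expressed per 1000 CPM of those markers, 7 of 41 members (17.1%) lay wholly below WT at E16.5 and 2 (4.88%) wholly above, where 5.33% of all genes tested lay below and 59.8% above. The 7 all belong to the 12 called lower, and they include Gabrb2, Gabra3, Gabra5 and Grik5. The 12 were called on these same libraries, so that match is not separate evidence. At E14.5 only 2 of the same 12 lay wholly below and 10 overlapped, Gabrb2, Gabra5 and Grik5 among them, and over the 41 members 5 lay below and 2 above, where 3.45% of all genes lay below and 36.0% above. At E16.5 Gabrb2 was 8.01 ± 1.35 in WT and 4.01 ± 0.516 in cKO (SD, n = 3 each, exact permutation p = 0.1). Gabra3 was 2.75 ± 0.115 in WT and 1.63 ± 0.213 in cKO at E16.5 (SD, n = 3 each, exact permutation p = 0.1). Gria3 (10.8 ± 0.158 and 10.8 ± 1.30, SD, n = 3 each), Gria4, Grid1, Grin2b and Gabbr2 overlapped on this scale at E16.5. Over all 41 members the median log2 ratio of cKO to WT on this scale was -0.0617 at E16.5 and -0.23 at E14.5. Grik2 (27.4 ± 2.25 in WT and 45.8 ± 6.89 in cKO) and Glrb (2.91 ± 0.0606 and 4.11 ± 0.475) lay wholly above WT at E16.5 (SD, n = 3 each, exact permutation p = 0.1 for both).

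Proteins that carry or anchor these receptors were read from a list of 47 partner genes, all of which were tested. At E16.5, 21 were called lower and 1 higher, where 9.88% of all genes were called lower and 5.98% higher, and the median was -0.42. The counts by kind below are to be read against the same shares. They include 7 of 13 AMPA receptor auxiliary subunits and 8 of 18 scaffolds of the excitatory synapse. Among the GABA-A and glycine receptor partners 4 of 10 fell and 1 rose, and of the GABA-B auxiliary subunits 2 of 4 fell, while 0 of 2 kainate auxiliary subunits did. Among the 8 smallest p-values were those of Dlgap3 (-1.41, adjusted p = 0.00173), Frrs1l (-0.79, adjusted p = 0.00188), Dlg4 (-0.65, adjusted p = 0.00188), Nlgn2 (-0.996, adjusted p = 0.00188), Cnih2 (-0.84, adjusted p = 0.00205) and Shisa7 (-1.16, adjusted p = 0.00558), given as log2 fold changes. Dlg4 and Dlgap3 are scaffolds behind excitatory synapses, Frrs1l, Cnih2 and Shisa7 bind receptor subunits, and Nlgn2 acts at inhibitory synapses. Plcl1, which binds GABARAP, a trafficking protein of GABA-A receptors, was the 1 gene that rose (0.39, adjusted p = 0.0298), and it was named after its value was seen.

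At E14.5, 7 partner genes were called lower and 0 higher, where 1.66% of all genes were called lower and 0.352% higher, and the median was -0.45. They include Nlgn2 (-1.10, adjusted p = 0.0207), Frrs1l (-1.01, adjusted p = 0.0207), Gsg1l (-0.79, adjusted p = 0.0258), Shank2 (-1.02, adjusted p = 0.0426), Dlgap3 (-1.59, adjusted p = 0.0427) and Shisa7 (-1.21, adjusted p = 0.0473). All 7 were among the 21 called lower at E16.5.

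The authors' deposited table, made with DESeq2, has 8 members lower in cKO at E14.5 and 18 at E16.5 at an adjusted p under 0.05, and 0 higher at either age. Of all genes with an adjusted p in the authors' deposited table, 6.22% are lower in cKO at E14.5 and 10.8% at E16.5.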

How the data were processed

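Genotype and age in the labels gave the groups. The authors deposited raw fragment counts per gene from featureCounts 1.5.2, which read RefSeq exons of mm10 with strand setting 2, per the file headers, after alignment with STAR 2.5.2b, per the submitters' processing notes. The authors' tables also hold log2 fold changes and adjusted p-values, for which the submitters' processing notes name DESeq2 1.14.1. Another 12 columns, of normalised values, were left aside.

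The main test was the quasi-likelihood F test of edgeR 4.0.16 (R 4.3.3, limma 3.58.1), after TMM scaling and filterByExpr, with a robust fit. Adjustment was by Benjamini-Hochberg over every gene tested, with a threshold of 0.05. DESeq2 1.42.0 was an alternative. Each age was fitted alone on 6 libraries, while the age difference and the WT ages came from a fit of 12. SE is the size of the change over the root of F. CPM uses TMM sizes of all 12 libraries, and RPKM divides by the exon length in the count table. Scripts were tested on simulated data.

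Within groups, libraries differed beyond sampling noise (chi-square per degree of freedom at least 9.06). Same-numbered libraries were taken as pairs at E16.5 because all 3 correlations exceeded 0.1, a pairing read from the data and not from the labels. Values in every library are given for members called at either age and for the 2 highest by RPKM in each class, and partner genes by the 8 smallest p-values. The members and lists were chosen with earlier results of these data known. Some receptor and partner genes that these rules name are counted but not reported here by name. ChIP-seq was not analysed here.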

Additional observations from a re-analysis of the deposited data

How the results depend on the processing

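At E16.5 the count of 12 was 12 with DESeq2 size factors or library totals and 11 without the low count filter. It was 18 by DESeq2, where 10.8% of all genes were called lower, and 25 with the replicate block. It was 5 in the fit of all 12 libraries (also with embryo sex as a term), and 5 to 19 leaving out 1 library. The 25 include Grik2 as higher, and the 19 include Grik2 and Gabra4 as higher. Gabra3, Gabrb2 and Grik5 were called in all 13 alternatives and Grid1 in 10. At E14.5 the count of 1 was 8 by DESeq2, 7 in the fit of all 12 libraries, and 0 with sex, without E14.5 WT B and cKO A, and without any 1 library (0 to 0). The replicate block gave 17 (7.12% of all genes were then called lower), but the numbers do not pair at E14.5 (correlations 0.272, 0.304 and -0.00218). For WT E16.5 against E14.5 the count of 1 was 6 by DESeq2, 0 without the filter, 0 with sex, 23 without E14.5 WT B and cKO A, and 0 to 9 leaving out 1 library; no replicate number is shared between ages. The age difference gave 0 in every alternative run. Leaving 2 libraries in a group, these fits assume the group varies like the other. Where the share of all genes called in an alternative is not given, its count cannot be set against that share.

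Values not called changed sign as follows. At E14.5 without WT B and cKO A: Gria1 0.28, Gria2 0.0986, Glrb 0.00547, Gabrb1 0.0644, Grm8 -0.0743 and Grm7 0.127. Glrb was 0.00477 with library totals and 0.000189 with the block. Leaving out 1 library gave Gabra2 -0.41 to 0.37, Gabre -0.75 to 0.0379, Gria2 -0.38 to 0.15, Glrb -0.0943 to 0.16, Gabrg3 -0.83 to 0.17, Gabrb1 -0.96 to 0.00197, Grm8 -0.0606 to 0.44 and Gabra4 -0.0268 to 0.62. At E16.5 Gabrd was 0.00522 with library totals and Gabra2 -0.00050 with the block. Leaving out 1 library there gave Grin3a -0.79 to 0.10, Gabra2 -0.19 to 0.28, Gria1 -0.17 to 0.25, Grm4 -0.21 to 0.0965, Gabrd -0.34 to 0.20 and Glrb -0.0468 to 0.16. The cause was not tested.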
